A study of Salmo salar with 40 samples.

Results

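Among the 10 control Atlantic salmon killed at day 14 of this study, 3 had a recorded body weight under 20 g (fish 6, 7 and 10), while the other 7 weighed 42 g or more (fish 1, 2, 3, 4, 5, 8 and 9). The 3 light fish, of 40 fish in all, were compared with the 7 heavier ones in liver gene expression. Groups were set by the recorded weight alone, and no expression value was used to choose a fish. The comparison itself was chosen with earlier results of these data known.

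The series asked what lufenuron, an agent that blocks chitin synthesis and is given in feed against sea lice, does to the salmon liver. Its 40 fish form 4 groups of 10: controls on 0 mg/kg and fish on 5 mg/kg, each sampled at day 8, 1 day after treatment ended, or at day 14, 7 days after it ended. All 10 fish compared here were untreated and were sampled at day 14, and the other 30 fish serve to estimate the spread and to place values. The labels give no tank, feeding record, sex or hour of sampling. A p-value here sets a difference against the variation among these fish alone, and effects of size and of tank cannot be told apart.

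The liver of a fish answers to its growth and feeding state through growth hormone. The hormone binds its receptor on hepatocytes, the kinase JAK2 and the factor STAT5 carry the signal on, and the liver then makes insulin-like growth factor I (IGF-I), which drives growth of muscle and bone. SOCS2 and CISH are feedback inhibitors that this signal switches on, so their transcripts follow it. In salmonids a shortage of food is known to lower hepatic IGF-I, to raise its binding protein IGFBP-1 and to move the liver from making fat to burning it.

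The records of the light fish are of 2 kinds. Fish 6 weighed 18 g at 11.9 cm, a condition factor (100 times the weight in g over the cube of the length in cm) of 1.07. It was thus a short fish of ordinary shape. Fish 7 weighed 18 g at 16.5 cm and fish 10 weighed 17 g at 15.4 cm, giving condition factors of 0.401 and 0.465. The 7 heavier controls had condition factors from 0.970 to 1.14, with a median of 1.03, and the 37 other fish of the series spanned 0.970 to 1.16, so both values lie far outside the range of every other fish. At the heavier fish's median condition, a fish of 16.5 cm would weigh 46.1 g and a fish of 15.4 cm would weigh 37.5 g. Conversely, a fish of 18 g would be 12.1 cm long and a fish of 17 g would be 11.8 cm long, close to the recorded length of fish 6. From the records, true leanness, a wrong weight and a wrong length of fish 7 and 10 cannot be told apart.

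**Figure D1:**
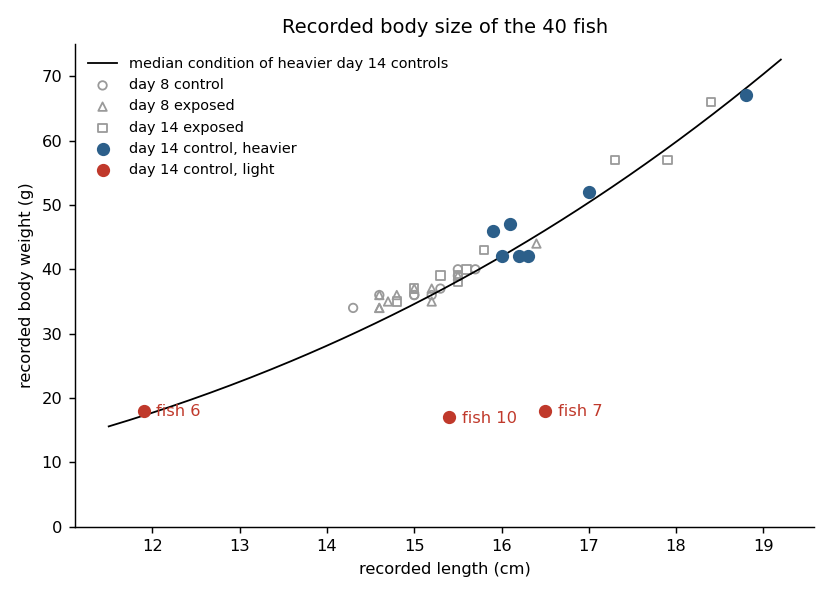
Recorded body weight (g) against recorded length (cm) for the 40 fish, with the heavier day 14 controls in blue, the light ones in red and the other groups as open grey symbols; the line is the weight expected at the heavier controls' median condition factor. Fish 6 lies on the line at 11.9 cm, while fish 7 and 10 lie far below it at 16.5 and 15.4 cm.

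Mean length was 14.6 ± 2.4 cm in the light fish (SD, n = 3) and 16.6 ± 1.0 cm in the heavier fish (SD, n = 7). The difference of -2.01 cm did not pass a two-sided exact permutation test (p = 0.117, 0.467 after adjustment over 4 measures), whose smallest possible p over the 120 arrangements is 0.0167. Library depth averaged 57.8 ± 5.3 M reads in the light and 57.3 ± 6.4 M reads in the heavier fish (SD, n = 3 and 7; exact permutation p = 0.917). Summed transcripts of 19 hepatocyte markers were 138702, 178969 and 142485 CPM (a gene's reads relative to the library's read total, scaled for library composition) in fish 6, 7 and 10, against 113085 to 163124 CPM in the heavier fish, so that each light sample was liver by its markers. In tissue samples like these, fewer cells of a type and less RNA per cell cannot be told apart.

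The livers of the 3 light fish did not form a set. Over 33332 genes, the median distance of fish 10 from the median of the other 9 day 14 controls was 0.2503 on the log2 scale, the smallest of the 10 fish, and that of fish 7 was 0.486, the largest. Fish 6 stood at 0.325, inside the heavier fish's range of 0.289 to 0.377. Fish 7 was the lowest of the 10 fish in 5770 genes and the highest in 5607, whereas fish 10 was lowest in 1812 and highest in 1656. Spearman's rho across genes was 0.941 between fish 6 and 7, 0.968 between fish 6 and 10, and 0.952 between fish 7 and 10; among the 21 pairs of heavier fish it ran from 0.947 to 0.972. By this measure the leanest fish by the records had the least usual liver of the 10, and the next leanest had the most usual one. The order partly followed library depth. Fish 1, 5 and 10 were nearest the rest and had 64.7, 66.1 and 63.0 M reads. Fish 4, 7 and 8 were farthest, with 50.2, 52.4 and 54.2 M reads. Fish 9, at 49.9 M reads, was not among the farthest. The part of depth in these distances was not tested.

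**Figure D2:**
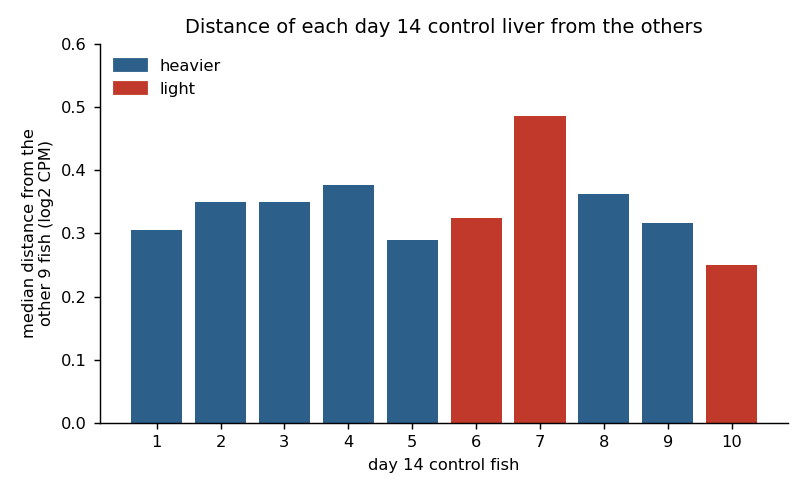
Median absolute distance of each day 14 control liver from the median of the other 9, in log2 CPM over 33332 genes; bars are single fish, blue for heavier and red for light. Fish 7 is highest at 0.486 and fish 10 lowest at 0.2503. The libraries differed in depth, and its part in the distances was not tested.

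The first comparison set all 3 light fish against the 7 heavier ones. A SOCS2-like gene, LOC106609294, was lower in the light fish and was the only gene past the threshold, 1 of 33332 genes tested (0.00300%). Its level was 0.763, 0.397 and 2.48 CPM in fish 6, 7 and 10, which rests on 44, 17 and 152 reads. Heavier fish ranged from 1.55 to 24.5 CPM with a median of 12.6. The gene fell by 3.44 ± 0.58 on the log2 scale (SE; edgeR's quasi-likelihood test with Benjamini-Hochberg adjustment, adjusted p = 0.0221). DESeq2 on the same counts called 52 genes and gave an adjusted p for 30093 of the 33332, so the rest could not be called. Its count is taken up with the other processing choices. The groups overlap through 1 fish, heavier fish 3 at 1.55 CPM, which lies between fish 6 and fish 10. None of the 30 fish of the other groups was as low as 2.48 CPM: their lowest value was 4.14 CPM, in a day 14 exposed fish. The call was lost without fish 4, 6, 7 or 8 in turn, where the log2 difference was -3.04 to -3.23, and with length as a covariate (-3.26) or with the 10 day 14 controls alone (-3.41).

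The salmon carries many duplicated genes, and the other SOCS2-like genes were also low in fish 6 and 7. LOC106576177 stood at 0.815, 0.958 and 2.38 CPM in fish 6, 7 and 10, against 1.79 to 20.6 CPM (median 8.48) in the heavier fish, a log2 difference of -2.94 ± 0.56 (SE, edgeR adjusted p = 0.0588). LOC106567289 stood at 1.01, 0.794 and 4.53 CPM against 2.88 to 33.4 CPM (median 12.8), a difference of -2.80 ± 0.63 (adjusted p = 0.171). In both genes fish 6 and 7 were below every heavier fish, fish 10 was above heavier fish 3 only, and none of the 30 other fish was as low as the highest light fish. The labels do not say how reads matching several copies were counted, so the copies are not independent evidence.

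Upstream of these inhibitors, the growth hormone receptor gene ghr1 was at 9.69, 2.17 and 10.3 CPM in fish 6, 7 and 10. Heavier fish ranged from 6.00 to 90.4 CPM with a median of 51.6. The log2 difference was -2.80 ± 0.61 and did not pass (SE, edgeR adjusted p = 0.152). Fish 7 had the lowest level of the 40 fish, and the 30 fish of the other groups were at 18.3 CPM or more, so the only fish among the light ones in rank was again heavier fish 3, at 6.00 CPM. The receptor gene LOC100136463, annotated as isoform 2, differed less, at 33.3, 41.0 and 34.8 CPM against 38.2 to 66.3 CPM (log2 difference -0.47 ± 0.19, adjusted p = 0.463). Transcripts of the JAK2-like gene LOC106585396 were at 19.4, 19.8 and 19.96 CPM in fish 6, 7 and 10, inside the heavier range of 15.0 to 22.5 CPM.

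Of the CISH genes, LOC106565139 was at 1.16, 0.491 and 3.47 CPM in fish 6, 7 and 10, against 1.96 to 8.11 CPM (median 4.65) in heavier fish. Its log2 difference of -1.48 ± 0.35 did not pass (SE, edgeR adjusted p = 0.210). Fish 10 lay near the lower heavier fish for this gene, and for the copies cish and LOC106565979 at 11.1 and 6.68 CPM it lay well inside their ranges of 2.35 to 40.6 and 3.19 to 14.5 CPM. The CISH transcripts were thus low in fish 6 and 7 and ordinary in fish 10, by their levels.

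At the output of the axis, the IGF-I gene LOC100136517 was at 14.0, 21.7 and 19.8 CPM in fish 6, 7 and 10. Heavier fish ranged from 15.3 to 107 CPM with a median of 33.7, and the log2 difference was -1.18 ± 0.46 (SE, edgeR adjusted p = 0.453). Fish 6 was just below the heavier range and fish 7 and 10 in its lower part, where heavier fish 5 (15.3 CPM) and 9 (18.4 CPM) lay as well. Here heavier fish 3 stood apart from the light fish, at 41.4 CPM. The IGFBP-1 gene igfbp-1b2, whose protein holds IGF-I back from its receptor, was at 12.2, 11.4 and 18.3 CPM against 19.6 to 151 CPM (median 35.0), with a difference of -2.29 ± 0.74 (adjusted p = 0.356). Its level was below every heavier fish in all 3 light fish, but the day 14 exposed fish reached down to 9.55 CPM. The copies igfbp-1b1 (28.3, 45.4 and 36.9 CPM against 37.6 to 107 CPM) and igfbp-1a1 (1.63, 11.9 and 5.90 CPM against 2.99 to 28.6 CPM) overlapped between groups.

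Over the list of growth hormone and IGF genes, 56 members were tested, of which 1 fell and none rose. Before adjustment, 14 had a p under 0.05 and were lower, beside 4.45% of all genes tested, and none was higher with such a p, beside 4.04% of all genes. By sign alone 35 of the 56 were lower, and the list's median log2 difference was -0.11, against -0.03 over all genes. The list was drawn up with earlier results of these data known, and several of its members are copies of 1 gene, so the count is a description. DESeq2 called 5 members, all lower, beside 38 lower and 14 higher of all 33332 genes tested. The 5 were the 3 SOCS2-like genes, ghr1 and the CISH-like gene LOC106565139.

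**Figure D3:**
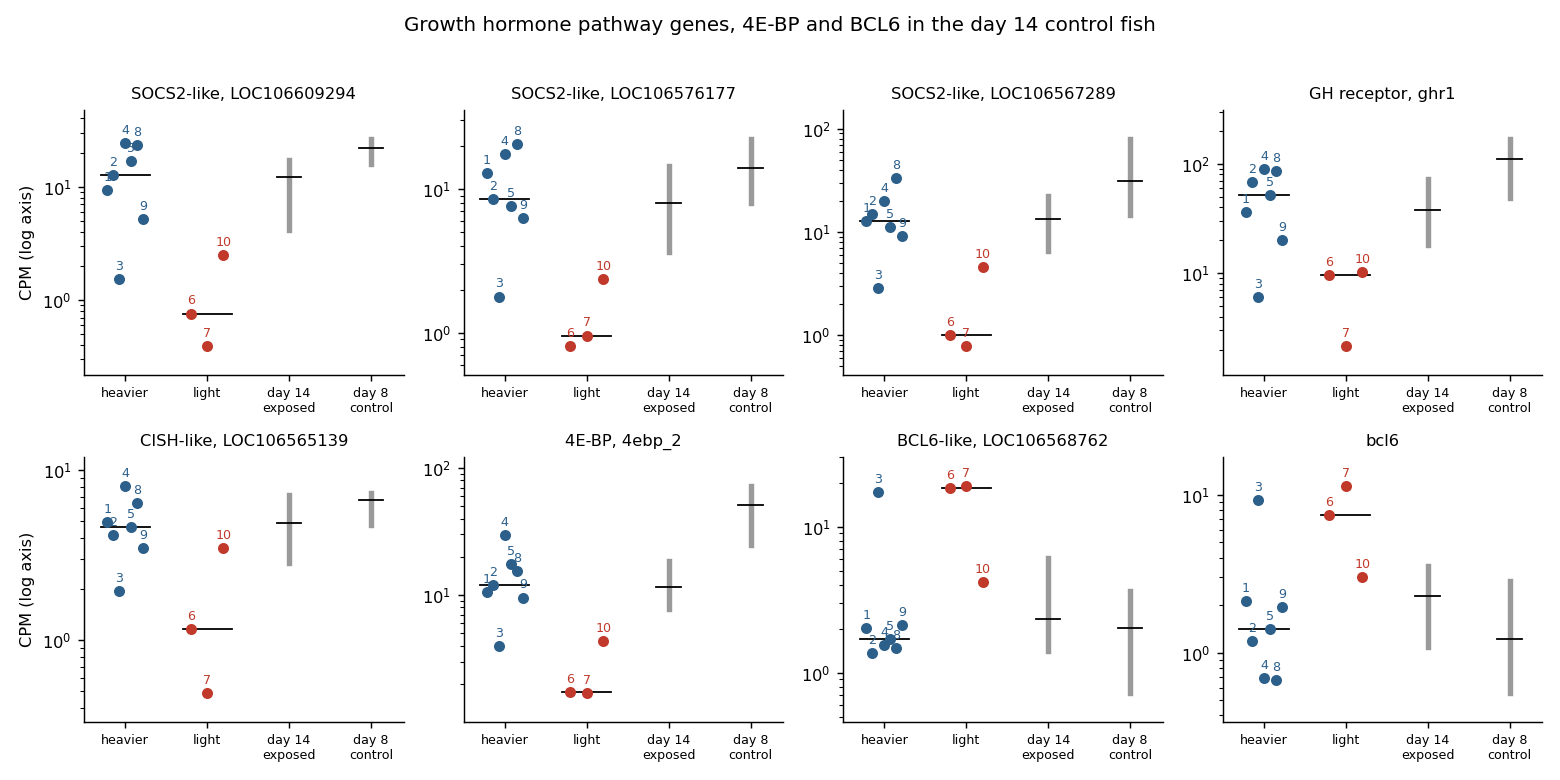
CPM on a log axis for 8 genes in the 7 heavier (blue) and 3 light (red) day 14 controls, each point a fish with its number; black bars are medians, and grey bars span the lowest to the highest of the 10 day 14 exposed and the 10 day 8 control fish. Fish 6 and 7 are lowest or next to lowest in the SOCS2-like, CISH-like and 4E-BP panels. Heavier fish 3 lies among the light fish in the SOCS2-like, GH receptor and 4E-BP panels, and the order turns over in the BCL6 panels.

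Among genes that restrain growth inside the cell, the translation inhibitor gene 4ebp_2 (4E-BP 3-1) was at 1.73, 1.71 and 4.34 CPM in fish 6, 7 and 10, against 3.95 to 29.6 CPM (median 11.9) in heavier fish. The log2 difference of -2.43 ± 0.45 narrowly missed the threshold (SE, edgeR adjusted p = 0.0588). Again 1 heavier fish, fish 3, lay below fish 10, and none of the 30 other fish was as low. A gene for DEPTOR, which binds and restrains the growth kinase mTOR, LOC106588367, was at 21.2, 28.0 and 35.5 CPM against 40.4 to 89.8 CPM, a difference of -1.16 ± 0.28 (adjusted p = 0.210). The light fish were below all 7 heavier fish in this gene, yet day 14 exposed fish reached as low as 22.5 CPM. Of the 57 tested members of this list none passed edgeR's test, 2 were higher and 6 lower with an unadjusted p under 0.05 (all genes: 4.04% and 4.45%), and the median difference was -0.07. Both genes named here were called by DESeq2, beside 52 of all 33332 genes tested.

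The remaining genes that the naming rule gave for all 3 light fish are shown as values, since none passed edgeR's test. Each of them was among the 52 genes that DESeq2 called. On the lower side were tf2l1, encoding the transcription factor TFCP2L1 (21.3, 15.6 and 34.5 CPM against 38.2 to 203 CPM, log2 difference -2.31 ± 0.46 SE, edgeR adjusted p = 0.0710), and an N-myc-like gene, LOC106571147, which had 1 read in each light fish and 11 to 29 reads in each heavier one (adjusted p = 0.0710). On the higher side was the RUNX3-like gene LOC106610817, a transcription factor of lymphocytes, at 1.51, 1.10 and 0.717 CPM against 0.174 to 0.579 CPM (1.60 ± 0.32, adjusted p = 0.0710). The RAS regulator gene ngap was at 1.85, 2.06 and 2.04 CPM against 0.557 to 0.857 CPM (1.59 ± 0.34, adjusted p = 0.117). The PARP14-like gene LOC106563178, of a family tied to interferon responses, was at 2.27, 2.34 and 2.44 CPM against 0.453 to 1.35 CPM (1.33 ± 0.30, adjusted p = 0.184). The naming rule also gave LOC106596280 and the BMP2-like gene LOC106612383, which passed in other contrasts. Light and heavier fish did not overlap in the other 5 genes, as was the case for 384 genes higher (1.15%) and 341 genes lower (1.02%) in the light fish of the 33332 tested. The 5 genes were named for their small p in this same contrast, so their separation adds no evidence. Day 8 controls reached 1.45 CPM for the RUNX3-like gene, 2.06 CPM for ngap and 3.91 CPM for the PARP14-like gene, so the light fish were not beyond all other fish of the series.

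Genes of fat synthesis, use and storage bear most directly on body condition. None of the 48 tested lipogenesis genes passed the test by edgeR or DESeq2, and 0 were higher and 1 lower with an unadjusted p under 0.05 (all genes: 4.04% and 4.45%). By sign 23 were higher and 25 lower, and their median log2 difference was -0.01. The fatty acid synthase gene LOC106589612 was at 204, 56.2 and 145 CPM in fish 6, 7 and 10, against 42.2 to 272 CPM (median 131) in heavier fish, with a difference of -0.04 ± 0.61 (SE). The desaturase gene LOC106577210 was at 917, 196 and 393 CPM against 64.5 to 665 CPM. Short fish 6 was thus above the heavier range for the desaturase and in its upper part for the synthase, while the low-condition fish 7 and 10 lay within both ranges. The gene with the smallest p in the list, LOC106566799 for acetyl-coenzyme A synthetase, was at 12.7, 17.1 and 13.8 CPM against 17.1 to 26.3 CPM (-0.58 ± 0.17, edgeR adjusted p = 0.345).

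In the triglyceride and lipid droplet list none of 46 genes passed by edgeR or DESeq2, 2 were higher and 6 lower with an unadjusted p under 0.05 (all genes: 4.04% and 4.45%), and the median difference was -0.11. The gene gpam, for the enzyme that opens triglyceride synthesis, was at 148, 145 and 169 CPM in fish 6, 7 and 10 against 169.7 to 308 CPM in heavier fish, so that the groups just failed to overlap (-0.56 ± 0.16 SE, edgeR adjusted p = 0.345). The lipin-1-like gene LOC106570052, another triglyceride enzyme that also acts in the nucleus, was at 0.815, 0.140 and 1.14 CPM against 0.443 to 4.18 CPM (-2.02 ± 0.63, adjusted p = 0.345). Heavier fish 3 was the low heavier fish in this gene too. Perilipin-2, which coats lipid droplets, was at 133, 93.95 and 83.4 CPM from plin2 against 27.8 to 112 CPM, and at 159, 114 and 124 CPM from LOC100380740 against 84.5 to 179 CPM, with no fish of low condition below the heavier range.

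Of 50 tested genes of fatty acid oxidation and ketone formation, none passed by edgeR or DESeq2, and 1 was higher and 6 lower with an unadjusted p under 0.05 (all genes: 4.04% and 4.45%). By sign 42 of the 50 were lower, as were 17871 of all 33332 genes, and the list's median difference was -0.18. The carnitine carrier gene slc25a20, which moves fatty acids into mitochondria, was at 25.9, 32.5 and 28.5 CPM in fish 6, 7 and 10, below the heavier range of 36.7 to 46.0 CPM (-0.46 ± 0.13 SE, edgeR adjusted p = 0.316). Transcripts of its partner enzyme CPT1 split in fish 7: LOC106573415 was at 136 CPM, just above the heavier range of 33.7 to 133 CPM, while LOC100136416 was at 4.81 CPM, below the heavier range of 8.18 to 13.0 CPM. In fish 10 the same genes were at 46.3 and 10.1 CPM, inside both ranges, and in fish 6 at 23.4 and 11.52 CPM, the first below its range.

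The fuel switch list, which holds regulators that respond to feeding and fasting, had no gene past edgeR's test among 39, with 0 higher and 7 lower at an unadjusted p under 0.05 (all genes: 4.04% and 4.45%), and its median difference was -0.19. DESeq2 called 1 member, the first named here, beside 52 of all 33332 genes tested. The insulin receptor substrate 2-like gene LOC106582130 was at 0.277, 1.03 and 0.277 CPM in fish 6, 7 and 10 against 0.662 to 4.66 CPM (-2.10 ± 0.57 SE, edgeR adjusted p = 0.308). A FOXO1-like gene, LOC106602890, for a transcription factor that insulin holds out of the nucleus, was at 6.69, 8.06 and 6.28 CPM against 7.51 to 26.9 CPM (-1.07 ± 0.37, adjusted p = 0.388). In each of these the light fish lay at the lower end of the heavier range or below it. The leptin receptor-like gene LOC106584036 was at 26.9, 68.4 and 35.4 CPM against 17.6 to 38.5 CPM, above the range in fish 7 only (0.59 ± 0.30, adjusted p = 0.602). Angiopoietin-like 4 (angl4), a secreted inhibitor of lipoprotein lipase, was at 35.4, 106 and 42.8 CPM against 28.7 to 123 CPM, within the range in all 3.

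**Figure D4:**
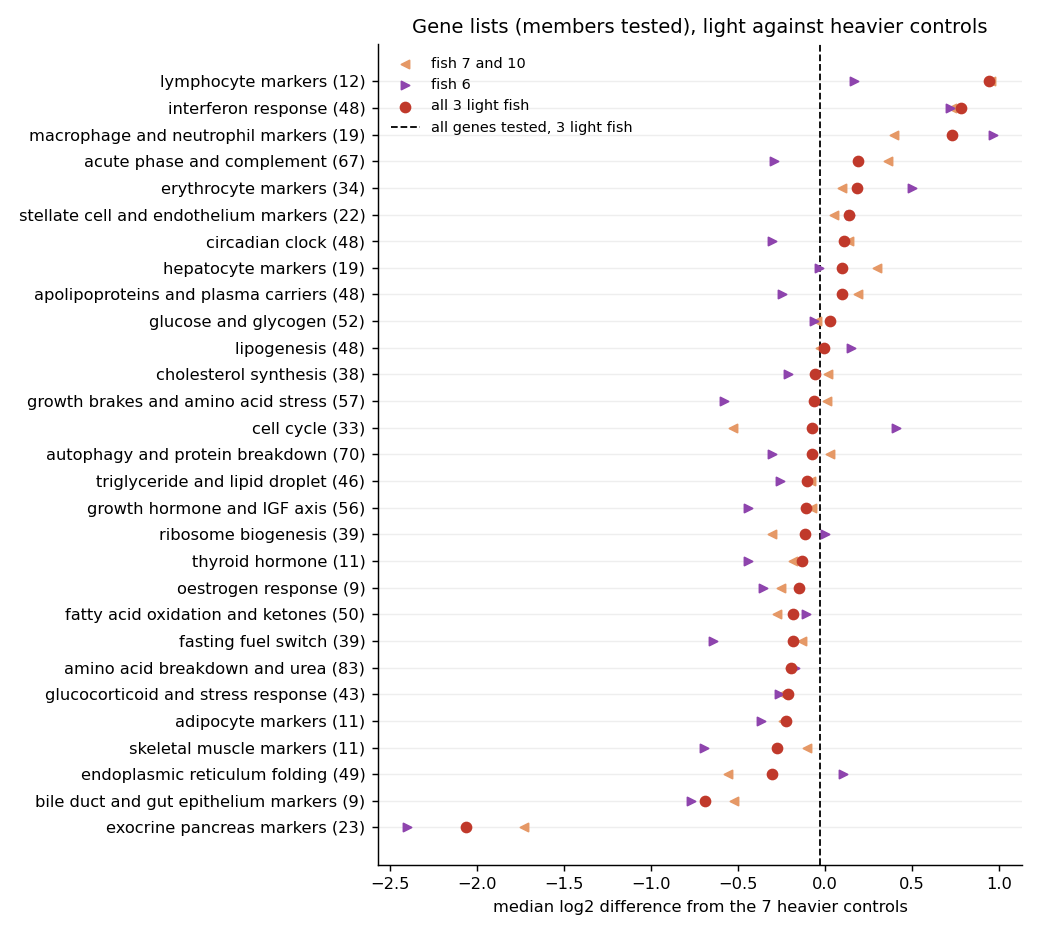
Median log2 difference from the 7 heavier controls for 29 gene lists (number of members tested in brackets), for all 3 light fish, for fish 7 and 10 and for fish 6; the dashed line is the median over all genes tested for the 3 light fish. Lymphocyte, interferon and macrophage lists lie highest and the exocrine pancreas list lowest, while the lists of fat metabolism and growth lie near the line for the 3 fish together.

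Interferon response genes, which cells switch on against viruses, lay higher in the light fish as a list, with no gene past the test. Of 48 tested, 39 were higher by sign, 16 were higher with an unadjusted p under 0.05 (4.04% of all genes) and none was lower with such a p (4.45% of all genes). The median log2 difference was 0.78, and DESeq2 called no member for the light fish together. The gene cmpk2 was at 3.88, 2.64 and 3.65 CPM in fish 6, 7 and 10 against 0.673 to 1.60 CPM in heavier fish (1.498 ± 0.40 SE, edgeR adjusted p = 0.300), without overlap between groups. The IFI44-like gene LOC106583431 was at 2.58, 0.187 and 0.701 CPM against 0.0384 to 0.348 CPM, which is high in fish 6, slightly high in fish 10 and inside the range in fish 7. Another IFI44-like gene, LOC106575246, was lower in fish 6 by DESeq2, with a log2 difference of -22.1 ± 5.1 (SE). That estimate is too large to be read as a measured fall. By edgeR 41 of the 54 list members tested in fish 6 were higher by sign (median 0.71), as were 15627 of all 36130 genes. Summed over the list, the level was 187, 143 and 165 CPM in fish 6, 7 and 10 and 84.1 to 125 CPM in the heavier fish. Other groups reached such sums, with up to 219 CPM in day 8 controls, 318 CPM in day 8 exposed and 145 CPM in day 14 exposed fish. White blood cell markers were also higher by sign, in 12 of 12 lymphocyte genes (median 0.94) and 17 of 19 macrophage and neutrophil genes (median 0.73). None passed by edgeR or DESeq2, while 1 and 3 of them were higher with an unadjusted p under 0.05 (4.04% of all genes). Lymphocyte markers summed to 114, 201 and 169 CPM in fish 6, 7 and 10 and to 38.9 to 169 CPM in heavier fish, mostly from the CD4-like gene LOC100136502, and macrophage and neutrophil markers to 220, 230 and 193 CPM against 129 to 220 CPM. No lymphocyte marker was at 0 in all 10 fish, whereas the macrophage markers marco and lyz were. Their part in the interferon values was not tested. Exocrine pancreas markers summed to 9.08, 23.1 and 8.74 CPM in the light fish and reached 44.0 CPM in heavier fish 3 and 130 CPM in heavier fish 9; with their sum as a covariate the SOCS2-like gene LOC106609294 differed by -3.44.

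Fish 7 and 10, the low-condition fish, were then taken as a pair against the 7 heavier fish. Of 36130 genes 1 passed (0.00277%), a gene named as similar to tetratricopeptide repeat protein 37, LOC106596280, whose human namesake serves RNA decay. It was at 2.15 and 1.14 CPM in fish 7 and 10 and at 0.0384 to 0.181 CPM in heavier fish, and at 0.0347 CPM in fish 6. The difference was 4.27 ± 0.75 on the log2 scale (SE, edgeR adjusted p = 0.0477), and the highest value in the other groups was 0.248 CPM. It was low in every fish but these, so it entered the test only through the fish in which it is high, and with the filter by 4 treatment groups it was not tested at all. The call was lost without fish 1, 4, 5, 7, 8 or 9, where the difference stayed between 3.75 and 4.34, and with the pancreas covariate or total counts. Without adjustment, 1429 genes were higher (3.96%) and 1542 lower (4.27%) with a p under 0.05.

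Other genes named for the pair did not pass edgeR's test. The 4 given first were among the 34 genes that DESeq2 called for the pair. A gene similar to hibernation-specific plasma protein HP-55, LOC106580072, was at 5875 and 3146 CPM in fish 7 and 10 against 1867 to 3057 CPM (0.92 ± 0.19 SE, edgeR adjusted p = 0.224), and LOC106611281, an ELM2 and SANT domain gene, was at 7.94 and 5.77 CPM against 1.74 to 4.36 CPM (1.23 ± 0.26, adjusted p = 0.224). LOC106590555, for the Sec61 gamma subunit of the protein channel of the endoplasmic reticulum, was at 0.444 and 0.342 CPM against 0.852 to 1.93 CPM (-1.91 ± 0.41, adjusted p = 0.224). The heme transporter-like gene LOC106572510 was at 0.0935 and 0.179 CPM against 0.544 to 0.798 CPM (-2.18 ± 0.47, adjusted p = 0.224). These 4 genes were named for their small p in this same contrast, so their separation of both fish from the heavier ones adds no evidence. In the first of them the margin for fish 10 was narrow. Folding genes of the endoplasmic reticulum were lower by sign in 45 of 50 cases for the pair (median -0.56) and cell cycle genes in 31 of 33 (median -0.53), as were 19711 of all 36130 genes. None passed in either list by edgeR or DESeq2, and 2 in each were lower with an unadjusted p under 0.05, beside 4.27% of all genes. In fish 6 alone 29 of the 33 cell cycle genes were higher by sign instead (median 0.41), and none passed. Folding genes summed to 5853 CPM in fish 7 and 8991 CPM in fish 10, inside the heavier range of 5391 to 18815 CPM. Cell cycle genes summed to 135 and 202 CPM in fish 7 and 10 and to 328 CPM in fish 6, also inside the heavier range of 97.1 to 359 CPM.

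The pair did not hold together when each fish was set against the heavier controls alone, a test in which a lone fish is assumed to vary like the groups. For fish 7, 40 genes were higher and 14 lower past the threshold, of 36111 tested (0.150%). For fish 10 none was, of 36142 tested (0%), with 884 genes at an unadjusted p under 0.05. Leaving out fish 10 therefore moved the count for the pair from 1 to 54, and leaving out fish 7 moved it to 0. DESeq2 called 34 genes for the pair and was not run on fish 7 or fish 10 alone. With a lone fish as a group, a gene could enter the test by its reads in that fish only. The filter by treatment groups, which removed the gene called for the pair, was not run on fish 7 alone. Fish 7 also had the lowest scaling factor for library composition of the 40 fish, 0.818, which raises its CPM relative to total counts. For the pair, edgeR gave 1429 genes higher and 1542 lower at an unadjusted p under 0.05. With total counts only, these were 654 higher and 2430 lower. Total counts were not run on fish 7 alone. How far the count for fish 7 and its lean to higher genes rest on such genes or on the scaling was not tested.

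Of the genes past the threshold in fish 7, those described here were singled out after their values were seen. Complement C3-like LOC106564830 was at 8584 CPM in fish 7 against 1970 to 4566 CPM in heavier fish and 3597 CPM in fish 10 (log2 difference of fish 7 1.60 ± 0.32 SE, edgeR adjusted p = 0.0296). Its copy LOC106569365 was at 8424 CPM against 2346 to 4129 CPM (1.28 ± 0.26, adjusted p = 0.0296). Ceruloplasmin (cp), a copper carrier of the acute phase, was at 9995 CPM against 1956 to 5144 CPM (1.35 ± 0.26, adjusted p = 0.0285), the highest of the 40 fish. A C1 inhibitor-like gene, LOC106609962, and antithrombin, both protease inhibitors of plasma, were at 3763 and 3046 CPM against 1420 to 1950 and 1234 to 1906 CPM (adjusted p = 0.0145 and 0.0452). Of the 67 acute phase and complement genes tested in the 3 light fish together, 46 were higher by sign and none passed edgeR's test. With an unadjusted p under 0.05, 5 were higher and 1 lower (all genes: 4.04% and 4.45%). DESeq2 called cp, beside 52 of all 33332 genes tested. For fish 7 alone 3 of 69 list members rose and none fell, both C3-like genes and cp, beside 54 of 36111 genes called. The list's summed level in fish 7, 168948 CPM, lay inside the heavier range of 116588 to 178925 CPM. In 2 other lists of liver products the sum in fish 7 was above every heavier fish. Apolipoproteins and plasma carriers summed to 196491 CPM against 128241 to 162596 CPM, and hepatocyte markers to 178969 CPM against 113085 to 163124 CPM. High levels in fish 7 were thus not particular to acute phase genes. All these sums are scaled, and the scaling factor of fish 7 was the lowest of the 40 fish, 0.818, which raises its CPM. How far its high sums rest on the scaling was not tested.

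Genes of amino acid breakdown and the urea cycle summed to 7210 CPM in fish 7, inside the heavier range of 6289 to 11022 CPM. Glucose and glycogen genes summed to 7206 CPM, inside the heavier range of 4965 to 7646 CPM. Of the first list, only the member past the threshold in fish 7 is given here, and it does not stand for the list. The median log2 difference of the list's members from the other day 14 controls was -0.21 in fish 7, beside -0.24 in heavier fish 1. The lysine-degrading enzyme gene LOC106584550 (AASS) was at 47.3 CPM against 123 to 243 CPM in heavier fish, and at 174 and 179 CPM in fish 6 and 10 (log2 difference of fish 7 -2.001 ± 0.39 SE, edgeR adjusted p = 0.0296). Outside these lists, and chosen after the values were seen, ornithine aminotransferase (LOC106608869) was at 46.9 CPM against 94.5 to 161 CPM (-1.44 ± 0.29, adjusted p = 0.0296). A gene for the alpha subunit of phosphorylase kinase, which starts glycogen breakdown, LOC106575975, was at 5.72 CPM against 17.6 to 43.8 CPM (-2.28 ± 0.49, adjusted p = 0.0406). Fish 7 had the lowest value of the 40 fish in all 3 genes. The SOCS2-like gene LOC106609294 (-5.07 ± 1.05, adjusted p = 0.0316) and the CISH-like gene LOC106565139 (-3.30 ± 0.55, adjusted p = 0.0114) passed in fish 7 alone as well. In fish 10 alone their differences were -2.43 ± 0.83 and -0.48 ± 0.41, neither past the threshold.

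Fish 6, short and light, had 6 genes past the threshold against the 7 heavier fish, all higher, of 36130 tested (0.0166%), the sixth being an uncharacterized gene, LOC106612702. By edgeR no member of the 29 gene lists was among them. DESeq2 called more genes for fish 6, and most of these were lower. They included members of the growth hormone, growth brake, autophagy, glucose and interferon lists, all lower, among them the SOCS2-like genes and 4ebp_2. The interferon member was the IFI44-like gene LOC106575246, whose estimate is too large to be read as a measured fall. The CXCL11-like chemokine gene LOC106586893, which in mammals draws T cells under interferon, was at 9.69 CPM against 0.154 to 0.610 CPM in heavier fish, and at 0.257 and 0.407 CPM in fish 7 and 10 (4.56 ± 0.78 SE on the log2 scale, edgeR adjusted p = 0.0149). The P-selectin-like gene LOC106560648, an endothelial receptor for leukocytes, was at 8.60 CPM against 0.115 to 1.88 CPM (3.23 ± 0.57, adjusted p = 0.0149). The BMP2-like gene LOC106612383, a signal that in mammals raises hepcidin, was at 4.51 CPM against 0.269 to 1.53 CPM (2.27 ± 0.40, adjusted p = 0.0149).

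The other named genes that rose in fish 6 were il-1racp, the accessory chain of the interleukin 1 receptor, at 36.4 CPM against 7.01 to 12.2 CPM (1.83 ± 0.35 SE, edgeR adjusted p = 0.0365), and LOC106605844, similar to the endothelial protein RASIP1, at 11.9 CPM against 3.798 to 6.33 CPM (1.30 ± 0.24, adjusted p = 0.0172). In all 5 named genes fish 6 was the highest of the 40 fish. Across the processing alternatives the call of il-1racp was lost in 8 and kept in 9, that of LOC106605844 was lost in 2, and those of the P-selectin-like and BMP2-like genes were lost in 1 each, with the direction the same throughout. Values that were low without passing edgeR's test are given next, and DESeq2 called each of these genes. The cathepsin L1 gene catl1 was at 184 CPM against 296 to 713 CPM (-1.51 ± 0.33). The membrane traffic gene vps45 was at 3.15 CPM against 5.48 to 10.7 CPM (-1.36 ± 0.28). The mitochondrial ribosome gene LOC106613691 was at 0.0693 CPM against 0.418 to 1.09 CPM (-3.29 ± 0.68). Before adjustment 925 genes were higher (2.56%) and 1313 lower (3.63%) with a p under 0.05.

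**Figure D5:**
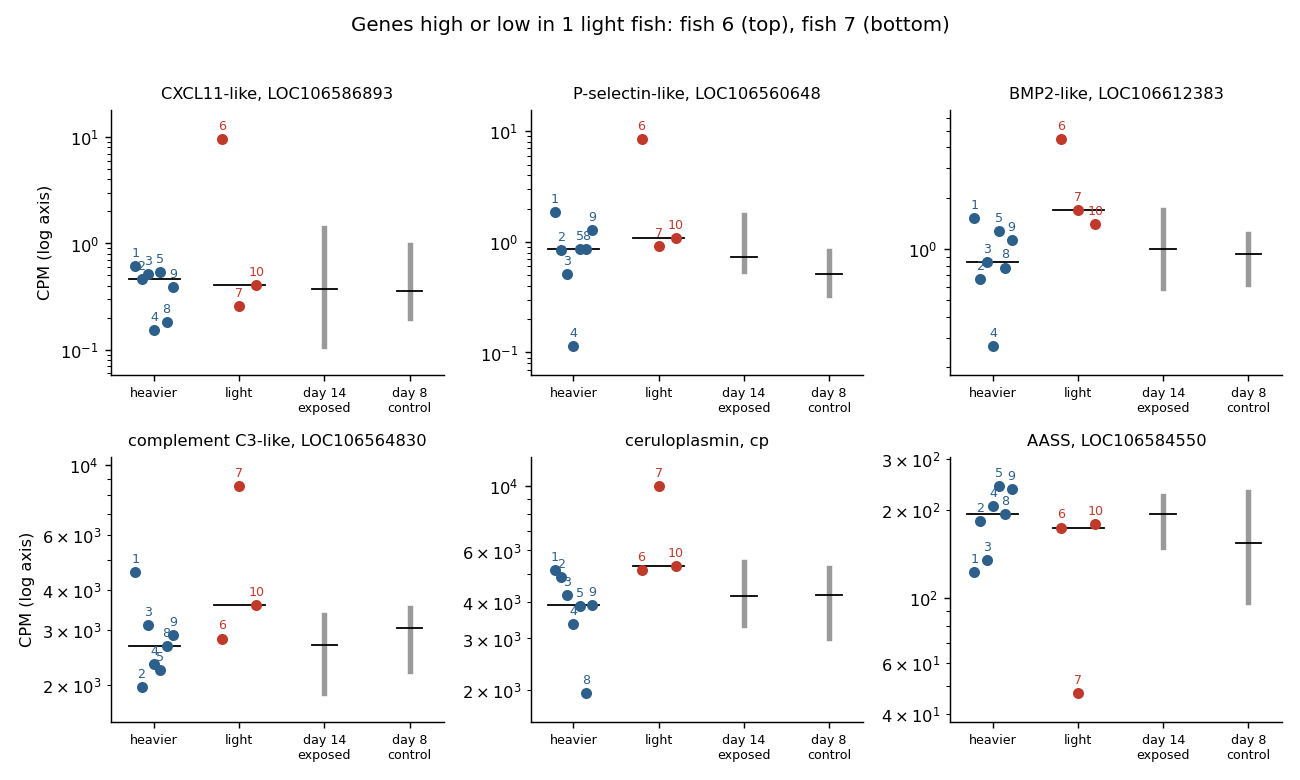
CPM on a log axis for genes past the threshold in fish 6 (top row) or in fish 7 alone (bottom row), in heavier (blue) and light (red) day 14 controls with fish numbers; black bars are medians and grey bars span the lowest to the highest of the day 14 exposed and day 8 control fish. Fish 6 stands alone at 9.69 CPM for the CXCL11-like gene, and fish 7 stands alone at 8584 CPM for complement C3-like and at 47.3 CPM for AASS.

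A direct test of fish 7 and 10 against fish 6 called none of 36130 genes (0%), with 2107 genes at an unadjusted p under 0.05 and a smallest edgeR adjusted p of 0.815, while DESeq2 called 16. The differences between the kinds of light fish described above are therefore differences in levels that the direct test did not call.

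Whether genes follow weight or condition where both records agree was asked in the 37 other fish, which weighed 34 to 67 g. No gene passed for a slope on log2 body weight (0 of 31189, 0%), with 1868 at an unadjusted p under 0.05 and a smallest edgeR adjusted p of 0.551. Nor did any pass for the slope on condition factor (0 of 31189, 0%), with 1570 at an unadjusted p under 0.05 and a smallest adjusted p of 0.929. DESeq2 was not run on the slopes. The smallest p values belonged to LOC106587320, a leucine-rich repeat gene with a slope of -4.41 ± 0.89 on weight, and to LOC106588497, a Mediator subunit gene with a slope of 6.09 ± 1.39 on condition (log2, SE). For the genes that were low in the light fish, the slope per doubling of weight was 0.16 ± 0.56 for the SOCS2-like gene LOC106609294, 0.66 ± 0.61 for ghr1 and 0.03 ± 0.48 for 4ebp_2 (log2, SE), each within about its own error of 0. No gene thus gave a scale on which a light fish could be placed, and 17 or 18 g lies outside the weights over which the slopes were fitted. The slope on condition was fitted over 0.970 to 1.16 only, far above the 0.401 and 0.465 of fish 7 and 10. Over so narrow a span, the lack of a call does not show that no gene follows condition. Whether fish 7 and 10 were lean or were weighed or measured wrongly therefore cannot be told apart from these livers. No member of the fat synthesis or storage lists passed for the pair, and fatty acid synthase and perilipin-2 lay in the heavier range in both. The genes gpam and slc25a20 lay below every heavier fish in both, and the lipin-1-like gene LOC106570052 in fish 7 only (log2 difference -4.35 ± 1.32, SE). These genes were named for the smallest p of their lists in these same contrasts, so their separation adds no evidence. For gpam the margin in fish 10 was narrow. Fish 6, of ordinary condition factor, also lay below every heavier fish in gpam and slc25a20. In all 3 light fish, 2 triglyceride and 2 oxidation genes lay below every heavier fish and none above. For lipogenesis 2 genes lay above and none below, beside 341 lower and 384 higher of all 33332 genes. Over all genes fish 7 was the farthest of the 10 fish from the rest and fish 10 the nearest. Their libraries differed in depth, and its part in these distances was not tested.

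Of the 7 heavier fish, fish 3 weighed 47 g at 16.1 cm, with a condition factor of 1.13. Yet it had low SOCS2-like, ghr1 and 4E-BP levels, within the range of the light fish. Without fish 3 the count of genes past the threshold went from 1 to 12 of 33284 tested (0.0361%), 4 higher and 8 lower, among them the 3 SOCS2-like genes, ghr1 and 4ebp_2. Fish 3 is the heavier fish with the light fish's levels of these genes, so calls made without it support nothing further. The higher ones, singled out after their values were seen, include both genes for BCL6, a repressor that growth hormone is known to lower in mouse liver. The BCL6-like gene LOC106568762 was at 18.4, 19.0 and 4.19 CPM in fish 6, 7 and 10 and at 17.2 CPM in fish 3, while the other 6 heavier fish had between 1.37 and 2.13 CPM. Its partner bcl6 was at 7.50, 11.4 and 3.00 CPM in fish 6, 7 and 10, at 9.27 CPM in fish 3 and at 2.13 CPM or less in the other 6. In the 30 fish of the other groups the highest values were 6.06 and 3.54 CPM. With all 7 heavier fish the differences were 1.82 ± 0.57 and 1.56 ± 0.53 (adjusted p = 0.345 and 0.388), neither past the threshold. Low SOCS2-like and high BCL6-like levels were seen together in fish 3, 6 and 7, at recorded weights of 47 g and 18 g. Fish 10, at 17 g, also lay below the other 6 heavier fish in the SOCS2-like genes. In both BCL6 genes fish 10 lay above those 6, at lower levels than fish 3, 6 and 7.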

How the data were processed

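RNA was sequenced from the livers of 40 fish, and the deposited table holds raw read counts per gene entry, 79140 entries with one column per fish. Per the submitters' processing notes, the authors used HISAT2, Cufflinks, HTSeq and DESeq2, with no versions; the genome build is not given in the sources used here. The day 14 controls had 49.9 to 66.1 M counted reads and all 40 fish 43.4 to 76.8 M.

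From the counts, genes were kept by edgeR's filterByExpr (minimum count 10, minimum total 15) and scaled by TMM. The tests were edgeR's quasi-likelihood tests (edgeR 4.0.16, R 4.3.3, robust) with Benjamini-Hochberg adjustment over all genes tested and a threshold of 0.05. All 40 fish entered each comparison, with 1 mean per group, so that they share 1 estimate of the spread. A single fish in an arm is assumed to vary like the other groups. The slopes on weight and condition used the 37 other fish. DESeq2 1.42.0 was an alternative, as were other scalings and filters, a length or pancreas marker covariate, other reference fish, and leaving out each fish. Scripts were tested on simulated data with known changes.

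The light fish, the gene lists and the naming rule were chosen with earlier results of these data known. For all light fish, genes named are those past the threshold with a mean of at least 1 CPM, or the 5 with the smallest p in a direction where fewer passed (3 for fish 7 and 10 and for fish 6), plus up to 4 members of each list; others are marked as chosen after their values were seen. Members of the growth and fat lists were described by role. The files pair no sequence with the genes, and none is printed.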

Additional observations from a re-analysis of the deposited data

Results flagged for a closer look

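Among the 7 heavier controls, 74 sets of values were searched for a fish far from the rest, by the gap to its nearest neighbour as a share of the whole range. Of these, 7 exceeded the 95% limit. Some of the sets were genes chosen after their values were seen, a BCL6-like gene past the limit among them. The count of 7 therefore cannot be set against the rate of about 1 in 20 that chance alone would give.

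Heavier fish 3 was past the limit in 3 genes on the log2 CPM scale. Its BCL6-like level (LOC106568762, 17.2 CPM) was high with a gap of 0.827 of the range, its lipin-1-like level (LOC106570052, 0.443 CPM) was low with a gap of 0.660, and calcitonin-1 (LOC106562334), a hormone gene with 111 reads in fish 7 and 29 in fish 10, was low with a gap of 0.578 and no read.

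Heavier fish 4 had the highest summed level of the fuel switch genes, 734 CPM, with a gap of 0.620. Heavier fish 9 had the highest exocrine pancreas sum, 130 CPM, with a gap of 0.688. Heavier fish 2 was the heaviest and longest, at 67 g with a gap of 0.6 and 18.8 cm with a gap of 0.621. No explanation of these values was tested.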

How the results depend on the processing

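No paired analysis was possible because the light fish carry the numbers 6, 7 and 10 and the heavier fish the other numbers, so the groups share none. For all 3 light fish the count of genes was 1 in the main analysis. It was 52 with DESeq2. Some of these 52 had estimates too large to be read as measured differences, such as LOC106610933 at -27.5 ± 3.4 and sms1a at -21.4 ± 3.2 (log2, SE). The count was 4 with heavier controls and day 14 exposed fish as one reference, 3 with the pancreas covariate and 3 with total counts only. With length as a covariate it was 0, and with only the 10 day 14 controls 0. Leaving out each fish gave 0 to 12: 0 without fish 4 or 8, 2 without fish 1, 3 without fish 9, 4 without fish 2, 6 without fish 10 and 12 without fish 3. For fish 7 and 10 the count of 1 became 34 with DESeq2, 2 with the larger reference, 2 with only the 10 controls, 0 with the pancreas covariate or total counts, and 0 with the filter by 4 treatment groups, which removed the called gene before testing. Leaving out each fish gave 0 to 54. For fish 6 the count of 6 became 57 with DESeq2 and 14 with the larger reference; with only the 10 controls 1 of the 6 was still called, the CXCL11-like gene LOC106586893. The direct test of fish 7 and 10 against fish 6 went from 0 to 16 with DESeq2. With no filter on low counts the slopes had 5 genes on weight and 17 on condition, from 0 each. The cause of these differences was not tested. The difference in read depth was -2.09 to 3.22 M reads when each fish was left out, and turned negative without fish 4 (-0.688), 8 (-0.0321), 9 (-0.738) or 10 (-2.09). Medians were rerun for 11 of the 29 lists, an alternative added after the data were seen. That of the cell cycle ran from -0.73 to 0.21 and that of growth brakes from -0.31 to 0.01, and that of lipogenesis from -0.06 to 0.12, so these have no stable sign.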

Other observations

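Further groups of genes were described by their counts in the 3 light fish, with no member past edgeR's test. Autophagy and protein breakdown genes had 11 of 70 members lower and 3 higher with an unadjusted p under 0.05 (all genes: 4.45% and 4.04%; median log2 difference -0.08), and glucocorticoid and stress response genes had 7 of 43 lower and 2 higher (median -0.21). Circadian clock genes had 5 of 48 higher and 1 lower (median 0.11), and the hour of sampling of each fish is not known. Ribosome biogenesis genes were lower by sign in 30 of 39 cases and none had an unadjusted p under 0.05. DESeq2 called no member of these 4 lists.

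In fish 7 alone, genes past the threshold outside the lists, chosen after their values were seen, include ino1a, for the enzyme that makes inositol phosphate (log2 difference 1.78 ± 0.35 SE, edgeR adjusted p = 0.0296), riok3, a kinase gene (1.40 ± 0.25, adjusted p = 0.0145), and the TGF-beta receptor gene tgfr2 (1.58 ± 0.34, adjusted p = 0.0413). The secreted phosphoprotein gene spp2 was lower (-1.52 ± 0.33, adjusted p = 0.0432).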
